A study of Drosophila melanogaster with 6 samples.

Results

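The genes described here are known in the deposited table only by a CG number, the systematic name that a Drosophila gene carries until it is given another. They were chosen by measured values: the abundances of all transcripts of a gene were summed, both EC-RNA values had to reach 10 TPM, and both had to lie above the larger ref-RNA value. Of 6911 CG-numbered genes, 61 met the rule, which is 0.883%. TPM is a relative abundance that takes account of how long a transcript is and how many reads a library has. Among the 7329 genes with other names, 213 met the same thresholds (2.91%).

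The libraries came from early L3 larval carcasses, and all larvae carried UAS-CD:UPRT, a transgene for the fused enzymes cytosine deaminase and uracil phosphoribosyltransferase. EC-RNA came from 109(2)80-Gal4 ; UAS-CD:UPRT larvae fed 5-ethynylcytosine (5EC) for 12 hours, in which the Gal4 driver places the enzymes in multidendritic (md) neurons. Mock-RNA came from UAS-CD:UPRT larvae fed neither analog, and ref-RNA from UAS-CD:UPRT larvae fed 5-ethynyluridine (5EUd) for 12 hours, both without Gal4. Each of the 3 sample types had 2 replicates, prepared independently from feeding to RNA processing, and each library pooled many carcasses.

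The fused enzymes convert 5EC into a tagged uridine nucleotide that enters newly made RNA only where both activities are present, whereas 5EUd is used by any cell. Tagged RNA is biotinylated and held on streptavidin beads, and the mock-tagged sample shows what the beads hold without a tag. Md neurons are sensory neurons of the larval body wall whose dendrites spread over the epidermis, next to muscle. The members' annotated roles are diverse. They include a small heat shock protein (CG14207, also called HspB8), a dipeptidase (CG17337, now Cndp2), a very long chain fatty acid elongase (CG2781, now Elovl7), a lipoyltransferase (CG44243, now Lipt1), a La-related RNA-binding protein (CG11505, now Larp4B), a glutamate synthase (CG9674) and an ABC transporter (CG31689). The annotation gives 11 of the 61 a present gene name, and most of the others have no named function there.

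Read counts were not used here, and TPM does not show how many reads lie behind a value. The study gives the mapped reads of its libraries, which are not repeated here. They were fewest by far for mock-RNA and most for ref-RNA, so a mock-RNA value or blank rests on the least depth. A blank cell was read as 0 and is reported as listed at 0, because it may be a missed or an absent transcript. Genes listed above 0 numbered 4761 and 5016 in EC-RNA, 2178 and 1812 in mock-RNA, and 9942 and 10369 in ref-RNA. Summed over 8 md neuron markers, the level was 1.32 and 105 TPM in EC-RNA, 5.17 and 18.1 TPM in mock-RNA, and 110.0 and 95.6 TPM in ref-RNA. The markers ppk26, Gr28b and pdm3 were at 0 in both EC-RNA libraries. Summed over 8 general neuronal markers, the level was 34.9 and 363 TPM in EC-RNA, 229 and 165 TPM in mock-RNA, and 106 and 87.1 TPM in ref-RNA, and over 8 muscle markers it was 26429 and 26609 TPM in EC-RNA, 11789 and 34555 TPM in mock-RNA, and 56893 and 51486 TPM in ref-RNA. In EC-RNA replicate 2, Piezo at 55.9 TPM and ct at 45.1 TPM gave most of the md neuron sum, which was no higher than the larger ref-RNA sum, and elav at 331 TPM gave most of the neuronal sum. In replicate 1 the md neuron label was not borne out by these markers, whose sum was far below both ref-RNA sums. In replicate 2 the md neuron sum lay between the 2 ref-RNA sums. There ct and kn were above both of their ref-RNA values and Piezo between them, while ppk, ppk26, pdm3 and nompC were below. The study names known md neuron genes, Piezo among them, as enriched in EC-RNA, by a count test that was not repeated here. Of the other lists, only the epidermis and cuticle sum was above ref-RNA in both EC-RNA libraries. It was 25847 and 38941 TPM in EC-RNA, 4397 and 146609 TPM in mock-RNA, and 17286 and 14305 TPM in ref-RNA. Lcp1 and Lcp4 gave most of it in EC-RNA and ref-RNA, and Lcp4 at 146063 TPM nearly all of it in mock-RNA replicate 2. Lcp2 was also above ref-RNA in both EC-RNA libraries, whereas Cpr47Eg and vkg were below it in both. The markers resilin and TwdlM were at 0 throughout. Fat body markers summed to 6472 and 10422 TPM in EC-RNA, against 9898 and 35916 TPM in ref-RNA. Haemocyte markers summed to 82.7 and 55.9 TPM in EC-RNA, against 266 and 225 TPM in ref-RNA, and glial markers to 2.70 and 94.3 TPM, against 102 and 122 TPM. The part of these differences in the members' values was not tested.

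Across the 61 members, the smaller EC-RNA value ranged from 22.1 to 1255 TPM with a median of 162 TPM. The larger ref-RNA value ranged from 0.726 to 898 TPM with a median of 60.5 TPM. The ratio of the smaller EC-RNA to the larger ref-RNA value had a median of 2.07 and ran from 1.00 to 144. It was at least 2 in 32 members, at least 10 in 4, and under 1.5 in 19. Because these values chose the genes, no test of EC-RNA against ref-RNA is given. Together the members held 2.29% and 1.93% of all TPM in EC-RNA, 10.004% and 7.06% in mock-RNA, and 0.732% and 0.655% in ref-RNA.

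**Figure D1:**
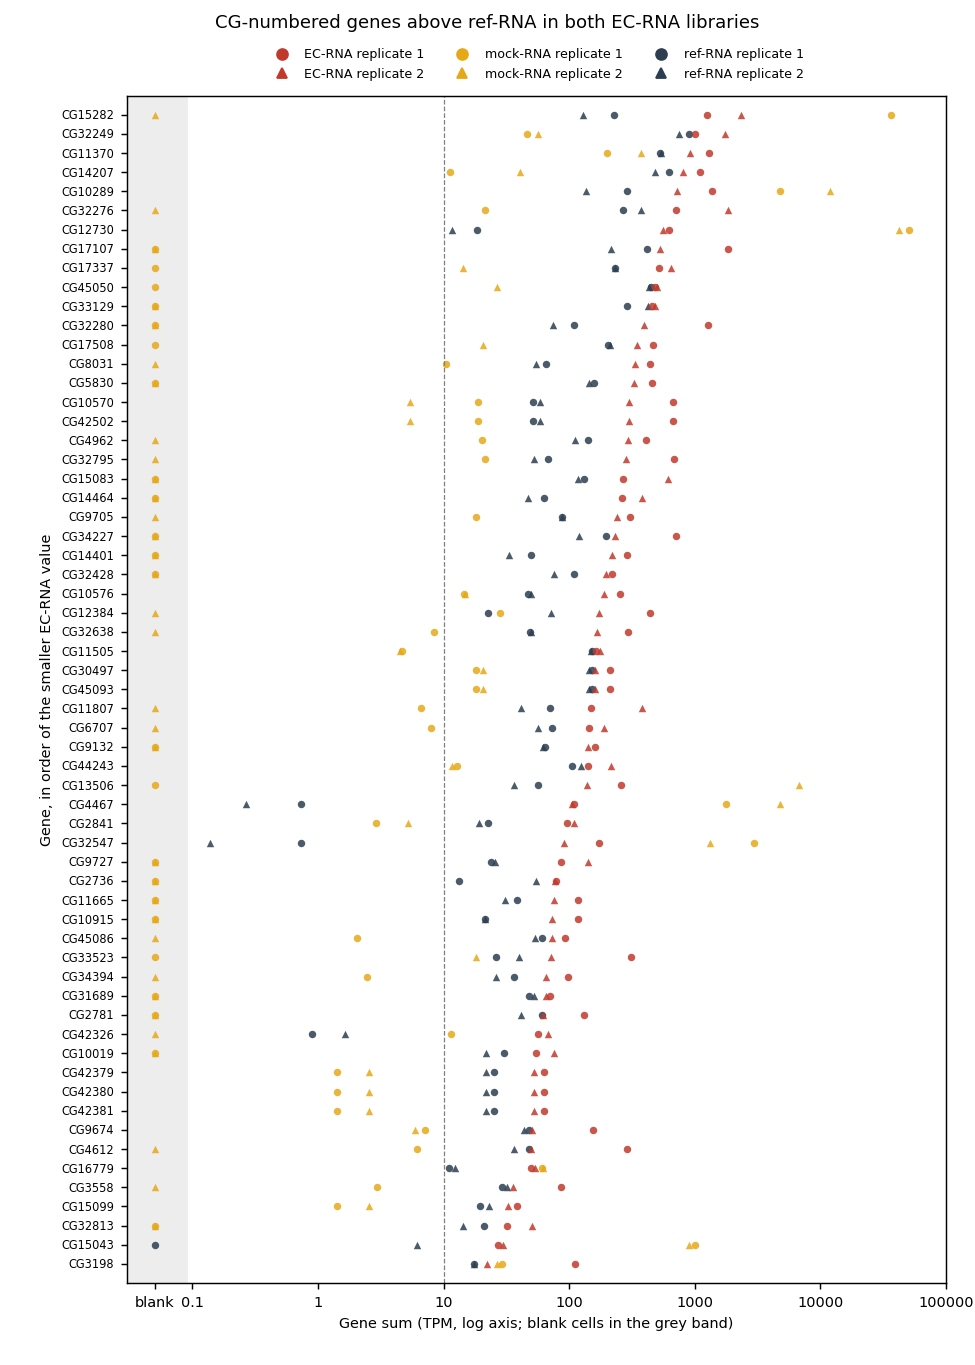
Gene sum of each member (TPM, log axis) in the 2 EC-RNA, 2 mock-RNA and 2 ref-RNA libraries, with the members in order of their smaller EC-RNA value and blank cells in the grey band. The EC-RNA points lie right of the ref-RNA points for all 61 genes, as the rule requires, while 7 genes have a mock-RNA point at 1000 TPM or more and 18 have both mock-RNA points in the blank band.

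Near the level threshold, CG3198, a LUC7-like protein gene, had 112 and 22.1 TPM in EC-RNA, CG15043 had 27.1 and 29.5 TPM, and CG32813 had 32.3 and 50.3 TPM. No member lay between 10 and 22 TPM in its smaller EC-RNA value. The nearest CG-numbered genes that were above ref-RNA but outside the level threshold were CG6220, CG42749 and CG3078. They had smaller EC-RNA values of 5.64, 4.60 and 2.79 TPM. Near the fold threshold, CG2781 (Elovl7) stood 1.00-fold, CG9674 1.05-fold and CG4612 1.06-fold above ref-RNA. Just outside, CG33521, CG12206 and CG11486 stood at 0.978, 0.957 and 0.945 of the larger ref-RNA value. At the fold threshold the values ran on without a gap. At the level threshold the nearest genes inside and outside stood well apart, but only among genes above ref-RNA. CG12206, which was not above it, had a smaller EC-RNA value of 15.7 TPM.

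The 2 EC-RNA replicates shared only some of the genes that each would have named. Of the 147 CG-numbered genes with both EC-RNA values at 10 TPM or more, 41.5% were members, and of the genes with other names it was 32.7%. By EC-RNA replicate 1 alone, 289 CG-numbered genes met the rule, and by replicate 2 alone 420, so the 61 members were 21.1% and 14.5% of those. Of the 228 genes that only replicate 1 named, 183 were under 1 TPM in replicate 2, and of the 359 that only replicate 2 named, 268 were under 1 TPM in replicate 1. A gene that was low in one replicate could not become a member. Within the members the ratio of the larger to the smaller replicate had a median of 1.39, and 45 were within 2-fold, but that closeness is in part set by the rule. The ratio reached 3 or more in 7 members and was 5.80 at most, for CG4612, at 291 and 50.2 TPM. Replicate 1 was the higher of the pair in 42 members and replicate 2 in 19.

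**Figure D2:**
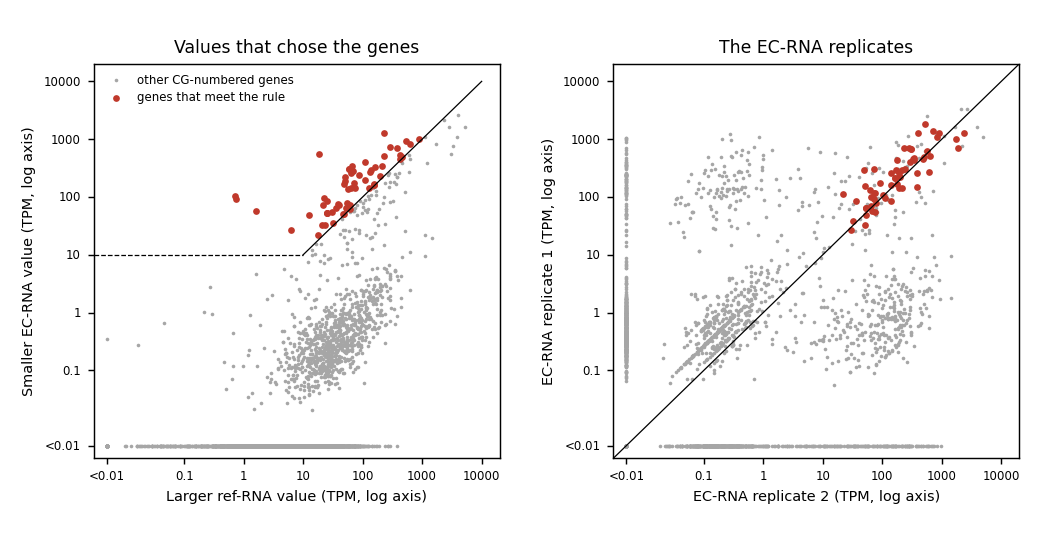
Left, the smaller EC-RNA against the larger ref-RNA value of every CG-numbered gene (TPM, log axes), with the 2 thresholds as lines and the 61 members in red. Right, EC-RNA replicate 1 against replicate 2 for the same genes. Many genes that are high in one EC-RNA replicate lie under 1 TPM in the other, where the rule allows no member, and 7 members differ 3-fold or more between the replicates.

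Some members share transcripts, so their values are not independent. The 61 genes held 57 distinct sets of values. CG42502 and CG10570 have the same annotated transcripts and the same 6 values, as have CG42379, CG42380 and CG42381, whose transcripts are also exon for exon those of PIG-M, and CG45093 and CG30497 have the same values. For such genes the deposited value cannot be given to one of them. CG45086 shares transcripts with Galphaq, and CG44243 (Lipt1) and CG45050 (now drn) each share an isoform with a neighbouring gene. Exons of 15 members overlap exons of a gene on the opposite strand, among them CG15083 and CG15099, which overlap each other. The sources used here do not say whether strand was used in counting, so reads from the overlapping bases may not be told apart. For CG15083 and CG15099 these bases are few, from 18836821 to 18836842 on 2R.

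CG15282 was the most abundant member by its smaller EC-RNA value (2L:14712471-14713298, plus strand, BDGP6.54). It had 1255 and 2351 TPM in EC-RNA, 36653 and 0 TPM in mock-RNA, and 227 and 129 TPM in ref-RNA. Both EC-RNA values were above both ref-RNA values, but 1 mock-RNA library was far above them all and the other was blank. CG32249 had 1012 and 1745 TPM in EC-RNA, 46.4 and 56.1 TPM in mock-RNA, and 898 and 755 TPM in ref-RNA. CG11370 had 1293 and 911 TPM in EC-RNA, 199 and 375 TPM in mock-RNA, and 525 and 540 TPM in ref-RNA. For both genes the 3 sample types did not overlap, and mock-RNA was the lowest. CG14207 (HspB8), a small heat shock protein, had 1108 and 815 TPM in EC-RNA, 11.2 and 40.5 TPM in mock-RNA, and 620 and 485 TPM in ref-RNA. CG17337 (Cndp2), a dipeptidase, had 520 and 643 TPM in EC-RNA, 0 and 14.4 TPM in mock-RNA, and 232 and 231 TPM in ref-RNA. CG32276, which encodes a small endoplasmic reticulum protein of the RAMP4 type, had 714 and 1849 TPM in EC-RNA, 21.5 and 0 TPM in mock-RNA, and 267 and 372 TPM in ref-RNA. These 3 genes were among the 50 of 61 members with both mock-RNA values below both ref-RNA values. That EC-RNA was above ref-RNA was set by the rule. CG45050 (drn) was close to the reference, with 485 and 501 TPM in EC-RNA, 0 and 26.7 TPM in mock-RNA, and 451 and 431 TPM in ref-RNA.

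Other members with a present name or a named role spanned a wide range of levels. CG5830 (hzg), a phosphatase, had 455 and 329 TPM in EC-RNA, 0 in both mock-RNA libraries, and 158 and 145 TPM in ref-RNA. CG33129 (Tmem214) had 454 and 479 TPM in EC-RNA, 0 in both mock-RNA libraries, and 289 and 423 TPM in ref-RNA. The first stood clear of ref-RNA and the second came near to it. CG11505 (Larp4B) had 165 and 177 TPM in EC-RNA, 4.67 and 4.52 TPM in mock-RNA, and 153 and 150 TPM in ref-RNA. CG44243 (Lipt1) had 142 and 217 TPM in EC-RNA, 12.8 and 11.6 TPM in mock-RNA, and 105 and 125 TPM in ref-RNA. Both genes had close sums in the 2 mock-RNA libraries as well, at a small part of their EC-RNA level. For CG11505 these sums lay on different isoforms, FBtr0073045 in replicate 1 and almost wholly FBtr0308061 in replicate 2. CG34394 (GramD1B), of a family that moves sterols between membranes, had 97.9 and 65.1 TPM in EC-RNA, 2.45 and 0 TPM in mock-RNA, and 36.2 and 26.2 TPM in ref-RNA. CG11665 (hrm), of the monocarboxylate transporter family, had 118 and 76.2 TPM in EC-RNA, 0 in both mock-RNA libraries, and 38.3 and 31.0 TPM in ref-RNA. CG2781 (Elovl7) had 132 and 61.6 TPM in EC-RNA, 0 in both mock-RNA libraries, and 61.4 and 41.7 TPM in ref-RNA. Its lower EC-RNA value all but met its higher ref-RNA value, while for CG34394 and CG11665 the groups stood apart.

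Whether these transcripts could be purified without a tag is the question of the comparison with mock-RNA, which the rule did not use. TPM is a share of each library, so the order of EC-RNA and mock-RNA values does not compare the amounts held on the beads. The members fell into 3 kinds. In both mock-RNA libraries 18 were blank (29.5%), 20 were blank in one of them and 23 had a value in both. Blank in both were also 25.4% of the 213 genes with other names that met the thresholds and 20.9% of the 86 CG-numbered genes at 10 TPM or more in both EC-RNA libraries that missed the rule, so these shares lay close together. Most members were low in mock-RNA, where the largest value was 375 TPM over 54 members, of which 36 had a value above 0. Over these 54, with blanks included, the medians were 2.26 TPM in replicate 1 and 0 in replicate 2. The remaining 7, CG12730, CG15282, CG10289, CG13506, CG4467, CG32547 and CG15043, reached 1000 TPM or more in at least one mock-RNA library and held 9.94% and 6.98% of all TPM there. They account for most of the members' share of mock-RNA.

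CG12730 had 620 and 557 TPM in EC-RNA, 51078 and 42340 TPM in mock-RNA, and 18.4 and 11.7 TPM in ref-RNA (X:5516608-5518771, plus strand). Its mock-RNA values were the highest of any member, and the 3 sample types did not overlap. On the log2(TPM + 1) scale it was lower in EC-RNA than in mock-RNA by limma's moderated test, with a log2 fold change of -6.30 (standard error 0.75, adjusted p = 0.0334). This is a difference in its share of a library, not in the amount of its RNA that was purified. It was the only member called in either direction, where a call needed an adjusted p (Benjamini-Hochberg) below 0.05 and at least a 2-fold difference. Of 4096 genes tested, 0.0244% were called lower. The call was lost when either mock-RNA library or EC-RNA replicate 2 was left out, with log2 fold changes from -6.44 to -6.17, and with quantile normalization, at -6.87. Its exons overlap an antisense RNA gene on the opposite strand.

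CG10289 (fmt), which encodes a regulatory subunit of the protein phosphatase PpV, had 1372 and 724 TPM in EC-RNA, 4792 and 12023 TPM in mock-RNA, and 287 and 137 TPM in ref-RNA. CG4467 had 109 and 105 TPM in EC-RNA, 1766 and 4749 TPM in mock-RNA, and 0.726 and 0.265 TPM in ref-RNA. CG32547 had 175 and 91.2 TPM in EC-RNA, 2997 and 1326 TPM in mock-RNA, and 0.739 and 0.137 TPM in ref-RNA. All 3 kept the order mock-RNA above EC-RNA above ref-RNA without overlap. CG15043 had 27.1 and 29.5 TPM in EC-RNA, 1010 and 894 TPM in mock-RNA, and 0 and 6.19 TPM in ref-RNA. CG13506 had 260 and 138 TPM in EC-RNA, 0 and 6774 TPM in mock-RNA, and 56.8 and 36.2 TPM in ref-RNA. Like CG15282, it was blank in one mock-RNA library and among the highest members in the other. CG16779, named after its values were seen, had 49.7 and 53.4 TPM in EC-RNA, 61.3 and 61.8 TPM in mock-RNA, and 11.0 and 12.4 TPM in ref-RNA, so that both mock-RNA values were above both EC-RNA values by a small margin. All of its EC-RNA value was on the isoform FBtr0082125 and all of its mock-RNA value on FBtr0331351, each at 0 in the other sample type, so the gene sums set different transcripts side by side.

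The log2 fold changes of EC-RNA over mock-RNA were -5.02 for CG15043, -4.75 for CG4467, -3.97 for CG32547 and -2.93 for CG10289, with limma adjusted p-values of 0.114, 0.114, 0.135 and 0.183. None of the 4 passed the test, although their groups did not overlap. CG4467 passed it with all 3 sample types in one fit, at a limma adjusted p of 0.0378, within a range from 0.0116 to 0.306 over the alternatives. CG4467 and CG32547 were also among the 4 members with a ratio of at least 10 to the larger ref-RNA value, as was CG12730. The other, CG42326, had 56.3 and 68.4 TPM in EC-RNA, 11.5 and 0 TPM in mock-RNA, and 0.890 and 1.64 TPM in ref-RNA. Of these 4 members, 3 had mock-RNA values above their EC-RNA values. In CG4467, CG32547 and CG42326 the ratio rests on ref-RNA values of at most 1.64 TPM. The share among all genes with such a ratio was not computed, so no link with mock-RNA is read from the 4.

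**Figure D3:**
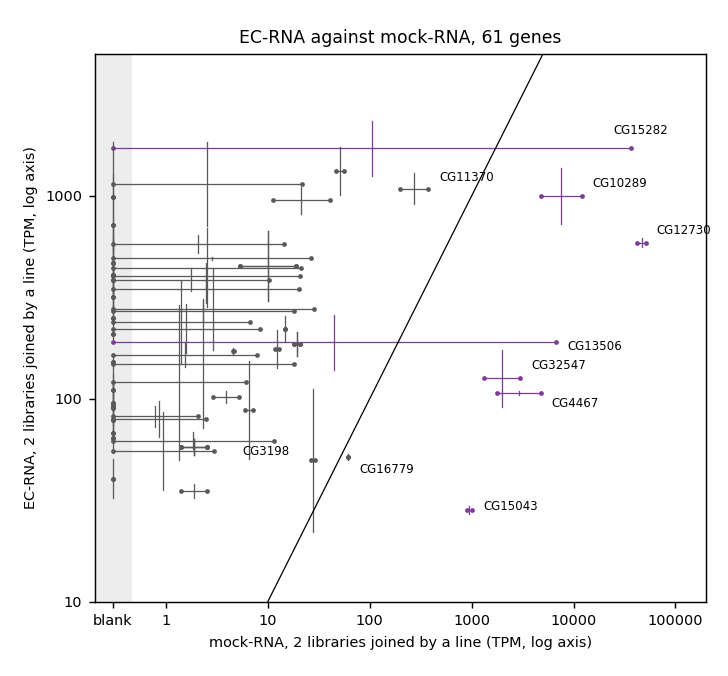
EC-RNA against mock-RNA for the 61 members (TPM, log axes), each gene drawn as a horizontal line between its 2 mock-RNA values and a vertical line between its 2 EC-RNA values, with blanks in the grey band and the 7 genes that reach 1000 TPM in purple. The black line marks equal values, and CG12730 lies farthest to its right at 51078 and 42340 TPM in mock-RNA.

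Both EC-RNA values were above both mock-RNA values in 52 members, against 33.9% of the genes tested, both mock-RNA values were above both EC-RNA values in 6, against 8.57%, and 3 members, CG15282, CG13506 and CG3198, overlapped. With limma, 0 members passed as higher in EC-RNA than in mock-RNA by the adjusted p, against 14 of the 4096 genes tested (0.342%). At an unadjusted p below 0.05, 48 members were higher and 5 lower, against 11.7% and 2.2% of the genes tested. The study's own comparison with mock-RNA removed only a small part of its enriched transcripts as not significantly enriched. That comparison was not repeated here. The lack of members passing as higher by the limma adjusted p therefore does not show that they are not enriched over mock-RNA. The median log2 fold change was 5.52 over the members and 1.91 over all genes tested, and it depends on the pseudocount because many mock-RNA values are 0. Over the 23 members with a value in both mock-RNA libraries the median was 3.63, with 17 positive and 6 negative, and over the 1053 tested genes with such values it was 0.02. All of these counts and medians rest on the EC-RNA values that chose the members, so higher values than over all genes follow from the rule and nothing is read from them. Of the 23, CG14207 had a log2 fold change of 5.40 and CG32249 of 4.68, neither past the limma threshold, with an adjusted p of 0.114 for each. Both passed it with all 3 sample types in one fit, at limma adjusted p-values of 0.0262 and 0.0196. Over all alternatives these ran from 0.0107 to 0.306 for CG14207 and from 0.0193 to 0.307 for CG32249. All of the mock-RNA value of CG14207 was on the isoform FBtr0074733, which had 139 and 0 TPM in EC-RNA. The isoforms leading EC-RNA, FBtr0307161 in replicate 1 and FBtr0345918 in replicate 2, were at 0 in both mock-RNA libraries. The fold change of CG14207 thus sets mostly different transcripts side by side.

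Both mock-RNA values were above both ref-RNA values in 7 members, while 1.39% of the 9025 genes that averaged 1 TPM or more over these 4 libraries had that order. In 50 members both mock-RNA values were below both ref-RNA values. The share of all genes with this order was not computed. Mock-RNA listed far fewer genes above 0 than ref-RNA, so the 50 is not read as a trait of the members. The 7 were CG12730, CG10289, CG4467, CG32547, CG15043, CG16779 and CG3198. The ref-RNA values were limited from above by the rule, so this count is a description as well.

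The 18 members blank in both mock-RNA libraries were not the least abundant ones. Their smaller EC-RNA value ranged from 32.3 to 526 TPM with a median of 170 TPM, against 162 TPM for the 43 members with a mock-RNA value. The 5 of them farthest above ref-RNA were CG14401, CG14464, CG32280, CG10915 and CG9727. CG14401 had 288 and 218 TPM in EC-RNA, against 49.7 and 33.5 TPM in ref-RNA. CG14464 had 264 and 379 TPM in EC-RNA, against 63.3 and 47.4 TPM in ref-RNA. CG32280 had 1283 and 398 TPM in EC-RNA, against 109 and 74.4 TPM in ref-RNA. In these genes the EC-RNA level was several times the reference in each library, and in CG32280 the EC-RNA replicates themselves differed by a similar step. CG10915 (Naus), a regulator of the lamellipodial actin network, had 117 and 73.2 TPM in EC-RNA, against 21.4 and 21.3 TPM in ref-RNA. CG9727 had 85.9 and 141 TPM in EC-RNA, against 23.9 and 25.6 TPM in ref-RNA. CG17107 was the most abundant of the 18, with 1840 and 526 TPM in EC-RNA, against 416 and 216 TPM in ref-RNA.

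The rule used gene sums, so the isoforms within a gene were left free. Isoform values are assignments of reads to transcripts that can share most of their bases, and TPM does not show the reads behind them. The table lists at least 2 isoforms for 50 of the members and 1 for the other 11. In EC-RNA nearly all of a member's TPM usually lay on a single isoform, with a median share of the leading isoform of 100% in both libraries, against 89.8% and 79.6% in ref-RNA. In 47 of the 50 the leading isoform held 75% or more in each EC-RNA library, although it could differ between the 2 libraries. The same held in 133 of 158 genes with other names that met the thresholds, with median shares of 99.8% and 99.95%. Among CG-numbered genes at 10 TPM or more in both EC-RNA libraries that missed the rule it held in 57 of 73. Their median shares were 99.7% and 99.5%, so a leading share near 100% was not particular to the members. The same isoform led in both EC-RNA libraries in 41 of the 50 members (82%), and in 38 it held 75% or more in both. One isoform likewise led in both ref-RNA libraries in 41. Among genes with other names that met the thresholds, the same isoform led in both EC-RNA libraries in 58.9% of 158, and among CG-numbered genes at 10 TPM or more in both EC-RNA libraries that missed the rule it was 63.0% of 73. These shares were not tested against each other.

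In 8 members the isoform leading in both EC-RNA libraries differed from the one leading in both ref-RNA libraries. In CG15282 the isoform FBtr0302946, of 383 bases, had 1252 and 2351 TPM in EC-RNA, against 0 and 6.56 TPM in ref-RNA. The isoform FBtr0080656, of 563 bases, had 3.11 and 0 TPM in EC-RNA, 36653 and 0 TPM in mock-RNA, and 227 and 122 TPM in ref-RNA. Both isoforms have the same start, introns and coding sequence, and the first has the earlier end. The isoform that led EC-RNA was listed at 0 in both mock-RNA libraries while the gene sum was not. Every base of the first isoform lies within the second, so no read is its own and the split rests on how reads were assigned. In CG32795 the isoform FBtr0309881 had 691 and 282 TPM in EC-RNA, against 0.330 and 0 TPM in ref-RNA. Its ref-RNA isoform FBtr0345318 had 0 in both EC-RNA libraries, against 61.6 and 40.0 TPM in ref-RNA. The 2 groups thus shared almost none of the gene's TPM by isoform, with the same coding sequence in both.

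In CG45050 (drn) the isoform FBtr0344365 had 470 and 493 TPM in EC-RNA, against 9.23 and 11.5 TPM in ref-RNA, where FBtr0344366 led with 202 and 223 TPM. The gene sum of drn was close to the reference while the isoforms differed almost fully. In CG11370 the isoform FBtr0330172 had 1180 and 911 TPM in EC-RNA, against 194 and 195 TPM in ref-RNA, and FBtr0078522 led ref-RNA with 332 and 345 TPM. The first is 1308 and the second 1323 bases long. In CG14401 the isoform FBtr0333010 had 288 and 218 TPM in EC-RNA and 0 in both ref-RNA libraries. The other 3 were CG9674, CG3558 and CG32813. In 7 of the 8 the EC-RNA isoform was the shorter one, in CG32795 the longer, and in 4 of the 8 both isoforms had the same coding sequence. Among the 158 genes with other names and 2 or more isoforms that met the thresholds, 28 had such a difference, with the shorter isoform in EC-RNA in 27. In CG9705 the isoform FBtr0333607 led both EC-RNA libraries with 303 and 142 TPM, against 17.6 and 17.6 TPM in ref-RNA, where different isoforms led the 2 libraries.

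**Figure D4:**
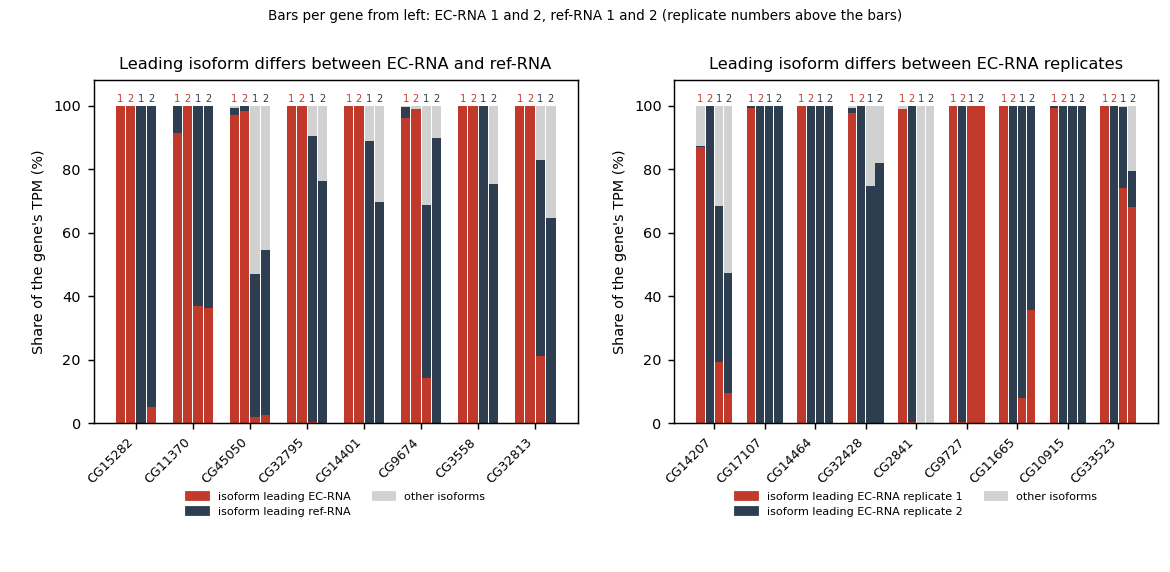
Share of each gene's TPM (%) held by its isoforms in EC-RNA and ref-RNA, for the 8 members whose leading isoform differed between EC-RNA and ref-RNA (left) and the 9 whose leading isoform differed between the EC-RNA replicates (right). The red isoform fills the EC-RNA bars on the left, while on the right most genes go from nearly all of one isoform to nearly all of another between the 2 EC-RNA libraries.

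In 9 members the leading isoform differed between the EC-RNA replicates. CG17107 had 1828 and 0 TPM of FBtr0080107 (418 bases) in EC-RNA and 11.6 and 526 TPM of FBtr0336848 (563 bases), and in ref-RNA the second led with 415 and 216 TPM. CG14464 had 264 and 0 TPM of FBtr0299923 in EC-RNA and 0 and 379 TPM of FBtr0345361, which alone had a value in ref-RNA. CG10915 (Naus) had 116 and 0 TPM of FBtr0086746 in EC-RNA and 1.04 and 73.2 TPM of FBtr0345416. In these 3 and in CG11665 (hrm) the isoforms share their start, introns and coding sequence, and the isoform of EC-RNA replicate 1 has the earlier end. That isoform lies wholly within the longer one, so the split between them rests on how reads were assigned. The isoform of EC-RNA replicate 1 was the shorter in 7 of the 9 and the longer in CG2841 and CG9727, while among the genes with other names that met the thresholds it was the shorter in 32 and the longer in 33. The difference between these counts was not tested. The isoform leading ref-RNA was that of EC-RNA replicate 2 in 5 of the 9, that of replicate 1 in 2, and neither, or not the same in both ref-RNA libraries, in 2. CG14207 (HspB8) had 964 and 0 TPM of FBtr0307161 (753 bases) in EC-RNA and 4.003 and 815 TPM of FBtr0345918 (1380 bases), so that its similar gene sums came from different isoforms.

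Of the 7 members with high mock-RNA, 5 had the same leading isoform in EC-RNA and mock-RNA, namely CG10289, CG12730, CG13506, CG4467 and CG32547. In CG12730 the isoform FBtr0345785 held all of the gene's TPM in both EC-RNA and both mock-RNA libraries. CG15282 and CG15043 did not share it. In CG15043 the isoform FBtr0343047 (903 bases) had all of the EC-RNA value, whereas FBtr0074626 (694 bases) had all of the mock-RNA value, 1010 and 894 TPM, and was at 0 in both EC-RNA libraries. For CG15043 the sum over isoforms therefore set different transcripts side by side.

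The annotation places 10 members on chromosome 2L, 19 on 2R, 14 on 3L, 6 on 3R and 10 on X, and 2 were not placed. Of 6876 CG-numbered genes with a place, 1289 lie on 2L, 1362 on 2R, 1392 on 3L, 1676 on 3R and 1131 on X. The isoform leading EC-RNA was 383 to 9523 bases long in the 57 members with a length, with a median of 1945 bases. The members' leading ref-RNA isoform had a median of 1804 bases, and that of 1944 CG-numbered genes that averaged 10 TPM or more in ref-RNA had a median of 1576 bases.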

How the data were processed

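Reads were trimmed (Trimmomatic) and quantified against BDGP6 transcripts (kallisto) by the authors, whose deposited values are TPM of 30828 transcripts in 6 libraries. Because TPM keeps no depth, precision was taken from the 2 replicates. Blanks were read as 0 and transcripts were summed to 14240 genes. No column of another series was present. The members and lists were chosen with earlier results of these data known. The authors' DESeq2 test needs counts and was not repeated. EC-RNA and mock-RNA were compared with limma 3.58.1 in R 4.3.3 on log2(TPM + 1), over genes that averaged 1 TPM or more in those 4 libraries, with a trended spread, no replicate term and Benjamini-Hochberg adjustment. The fit was tested on simulated data, where calls of known changes were checked only at a spread much smaller than that between the EC-RNA replicates. At the real spread only the estimates were checked, as few calls can be made there. The simulation thus does not show that a true change would be called in these libraries. Fold changes on this scale understate the change of low genes, and none is given for a gene at 0 in both mock-RNA libraries. An exact test of 2 against 2 libraries cannot reach a p below 0.05.

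Genes were named by rule: the 10 members with the highest smaller EC-RNA value, the 5 farthest above ref-RNA among those blank in mock-RNA, the 5 with the highest smaller and the 5 with the highest larger mock-RNA value, the 5 with the most abundant isoform leading EC-RNA but no ref-RNA library, the 3 on each side of each threshold, and members with a present gene name. Others were chosen after their values were seen. Positions and isoform structures are those of Ensembl release 115 (BDGP6.54). Alternatives were other minimum levels and folds, pseudocounts, filters and scalings, 1 fit over all sample types, a replicate term, and leaving out each library. Counting members with identical values once was added after seeing the data. Python 3.11.15, pandas 2.3.3 and NumPy 2.4.6 were used. No sequence is printed because no genome sequence was used here.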

Additional observations from a re-analysis of the deposited data

How the results depend on the processing

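The 61 members became 32 at 2-fold or more above ref-RNA and 116 with quantile normalization, which kept 52 of them, and 66 to 420 with 1 EC-RNA or ref-RNA library left out. All 61 met the rule again at a minimum of 5 or 20 TPM and after rescaling without the 10 most abundant or the mitochondrial transcripts. Against mock-RNA, the counts of all genes called higher and lower were 4 and 1 with a pseudocount of 0.1, 22 and 3 with 10, 4 and 1 with quantile normalization, 14 and 2 with no filter, 15 and 4 without the 10 most abundant transcripts, and 286 and 40 with all sample types in 1 fit. Of the members, 27 were then called higher and 2 lower, and with quantile normalization 0 lower. With the replicate number as a block, 157 genes were called higher and 37 lower, of them 21 and 4 members. With this block CG4467, CG15043 and CG32547 passed as lower (limma adjusted p = 0.0116, 0.0161 and 0.0482) and CG14207 and CG32249 as higher (0.0107 and 0.0193). The numbers are not known to pair the libraries (r = 0.0108 between replicate differences). Leaving out 1 library gave 0 to 940 genes higher and 0 to 60 lower, and 0 to 21 members higher and 0 to 1 lower, with the lone library assumed to vary like the others. The median log2 fold change of all genes was 0.79 with quantile normalization, 1.03 with a pseudocount of 10, 0.39 with no filter, 1.74 without the 10 most abundant transcripts and -0.67 without EC-RNA replicate 2, and that of the members was 3.17 with quantile normalization and 3.36 with a pseudocount of 10. For CG3198 the log2 fold change of 0.83 turned to -1.87 with quantile normalization and -0.32 without EC-RNA replicate 1, and ran from there to 1.98 over the libraries left out. Members blank in both mock-RNA libraries numbered 30 by their leading EC-RNA isoform, and 23 to 33 with 1 mock-RNA library. The cause of these changes was not tested. Precision is limited by 2 libraries per sample type and by depth, which TPM does not show and which was lowest in mock-RNA.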
